A study of Mus musculus with 16 samples.

Results

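The apolipoprotein L family was followed through B16F10 melanomas of lean and obese mice, before therapy and after etoposide (ETS). The genes described are Apol6, Apol7a, Apol7c, Apol8, Apol9a, Apol9b and Apol10b, that is 7 of the 45777 genes of the table. They were chosen by symbol with their counts and TPM values over the 4 groups in view, that is selected on the same measurements described here, and Apol6 was already known for a large drop in lean tumors. Their levels and fold changes are therefore given as a description, without p-values. Tests are given only for genes outside these 7, other apolipoprotein L genes included.

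RNA was sequenced from 16 allograft tumors, 4 in each of 4 groups. All tumors grew from B16F10 cells, a mouse melanoma line of C57BL/6 origin, injected under the skin of the flank of mice 6 weeks old. Lean tumors came from C57BL/6J mice and obese tumors from leptin-deficient ob/ob mice, whose obesity is genetic and not due to diet. Pre-therapy tumors received no drug, and ETS tumors were taken after 5 intraperitoneal injections of etoposide, a topoisomerase II inhibitor, at 20 mg per kg. ETS tumors are later tumors too, and the labels give no group that received vehicle for the same time, so drug and time cannot be told apart. The libraries came from whole tumor tissue and held between 47199949 and 61655287 counts each. Markers of melanocytes were summed per tumor in CPM (CPM, the count of a gene scaled to the size of its library). The sums were 17973 to 22591 CPM in lean pre-therapy tumors and 22760 to 26037 CPM in lean tumors after ETS. In obese tumors they were 11013 to 15057 CPM before therapy, below every lean tumor, and 10665 to 25059 CPM after ETS. None of the 7 markers was at 0 in a group.

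Apolipoprotein L proteins are named after a human protein found on lipoprotein particles, but most of the family lack a secretion signal and stay inside the cell, where they are associated with membranes. They carry a helical region that resembles the pore-forming and Bcl-2 families, and human APOL1 is known for lysing trypanosomes. Many family genes are induced by interferons: signals from type I interferon receptors act in the nucleus with STAT2 and IRF9 at the interferon-stimulated response element (ISRE), and those of interferon gamma act at the gamma-activated site (GAS) and through IRF1. In mice the family has expanded into a cluster of near copies.

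All 7 genes lie on chromosome 15 of the GRCm38 build (mm10). Apol6 (gene ID 71939, from 77045050 to 77057108, plus strand) stands at a distance from the rest and overlaps Mb, the myoglobin gene, on the opposite strand. Apol7a (75761) runs from 77388217 to 77399110, Apol9a (223672) from 77403789 to 77411080 and Apol7c (108956) from 77524852 to 77533335, all on the minus strand. Apol10b (328561) runs from 77584154 to 77598542 on the minus strand, Apol9b (71898) from 77729047 to 77736382 on the plus strand and Apol8 (239552) from 77745109 to 77757062 on the minus strand. Apol7b, Apol7e, Apol10a, Apol11a and Apol11b lie among them and are used for comparison.

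The promoters were searched for the core of the ISRE (TTTC, any 2 bases and TTTC again, on either strand) because the levels below moved with those of interferon-induced genes. RefSeq windows of 300 bases, from 250 before to 50 after a start site, were given for 6 of the 7 genes. Of these 6, the ISRE letters were found in 4, namely Apol9a, Apol9b, Apol7c and Apol10b, and not in Apol7a or Apol8. Of all 27025 genes with a window, 3.99% held the letters, against 8 of the 14 antiviral interferon-induced genes with a window and 10 of the 15 interferon-gamma-induced genes with a window (lists described below). The stretches of 100 bases below run 5′ to 3′ on the strand of the gene, with the letters of each ISRE match in capitals. They end at the last base before the most upstream start site that has a window (for Apol10b, 6 bases after it). Such a site can lie inside the gene. Those of Apol10b, Apol7c and Apol8 do, since these genes reach to 77598542, 77533335 and 77757062 on the minus strand. That of Apol9b does too, since the gene begins at 77729047 on the plus strand. The second Apol9b match, from 77729041 to 77729050, spans the beginning of the gene. Matches that overlap run into each other. The Apol9 pair and Apol7c show overlapping matches, Apol10b a single match at its inner start site, and Apol7a and Apol8 none.

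Apol9a (chr15:77411081-77411180, minus strand): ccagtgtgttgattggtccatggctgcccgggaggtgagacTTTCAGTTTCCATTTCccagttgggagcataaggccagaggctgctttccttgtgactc
Apol9b (chr15:77728972-77729071, plus strand): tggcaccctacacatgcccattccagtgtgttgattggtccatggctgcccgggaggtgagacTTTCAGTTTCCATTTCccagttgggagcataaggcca
Apol10b (chr15:77596120-77596219, minus strand): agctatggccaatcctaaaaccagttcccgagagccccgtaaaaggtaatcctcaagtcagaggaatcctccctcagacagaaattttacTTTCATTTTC
Apol7c (chr15:77533316-77533415, minus strand): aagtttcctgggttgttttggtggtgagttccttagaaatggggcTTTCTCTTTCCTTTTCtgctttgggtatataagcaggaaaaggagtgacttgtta
Apol7a (chr15:77399111-77399210, minus strand): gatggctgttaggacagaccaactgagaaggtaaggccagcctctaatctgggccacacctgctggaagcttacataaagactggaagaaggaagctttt
Apol8 (chr15:77757011-77757110, minus strand): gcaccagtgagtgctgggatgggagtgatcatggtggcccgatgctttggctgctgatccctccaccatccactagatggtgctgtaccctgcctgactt

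The core of the GAS (TTC, any 3 bases and GAA, which reads the same on both strands) was in none of the 6 windows, against 9.55% of all genes with a window. A match is a run of letters and not a shown binding site, and the absence of a match speaks only for this window.

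The copies differ in how well their reads can be assigned. The coding sequences of Apol9a and Apol9b, each 933 bases, differed at 14 positions and were 98.5% identical, and their promoter stretches hold the same matches. Apol7a and Apol7c were 90.8% identical over 1110 aligned bases, whereas Apol6 was between 53.4% and 64.9% identical with every other member. Counts of Apol9a and Apol9b could therefore be split between them by the assignment of reads, which the sum of the pair avoids. Outside the 7 members, Apol7b and Apol7e differed at 12 of 1110 coding positions.

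Before therapy, lean tumors held far more apolipoprotein L RNA than any other group. The summed TPM (a level per transcript length, scaled to the same total in every tumor) of the 7 genes was 327 ± 97.5 (SD, n = 4) in lean pre-therapy tumors, 15.2 ± 8.74 (n = 4) in lean tumors after ETS, 1.35 ± 1.13 (n = 4) in obese pre-therapy tumors and 9.70 ± 1.68 (n = 4) in obese tumors after ETS. The lowest lean pre-therapy tumor, at 190, lay well above the highest tumor of any other group, at 28.4. The level was thus lower after ETS in lean tumors. In obese tumors it was higher after ETS, where all 4 values (7.63 to 11.7) lay above all 4 before therapy (0.482 to 2.94).

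Apol9b and Apol9a carried most of this RNA. These are cytoplasmic proteins known as products of interferon-induced genes. Apol9b was at 74.7, 129, 98.1 and 114 CPM in the 4 lean pre-therapy tumors and at 13.6, 6.98, 5.54 and 6.16 CPM in the 4 lean tumors after ETS. In obese tumors it was at 0.578, 0.478, 0.234 and 0.226 CPM before therapy and at 3.73, 4.38, 2.16 and 4.72 CPM after ETS. By CPM none of the groups of Apol9b overlapped, and their order was lean pre-therapy, lean after ETS, obese after ETS, obese pre-therapy. By TPM both groups after ETS overlapped, since obese tumor 4 was at 5.81 and lean tumor 2 at 5.55. The log2 fold change with ETS was -3.69 (SE 0.33) in lean tumors and 3.32 (SE 0.39) in obese tumors, and the difference between both effects was -7.01 (SE 0.50).

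Apol9a followed the same course. It was at 64.9, 118, 94.9 and 103 CPM in lean pre-therapy tumors and at 12.3, 4.63, 3.42 and 3.43 CPM after ETS, so that tumor 1 stood above the other lean tumors after ETS. In obese tumors it was at 0.268, 0.338, 0.201 and 0.104 CPM before therapy and at 2.84, 3.82, 1.45 and 3.69 CPM after ETS. Obese tumors 2 and 4 after ETS, at 3.82 and 3.69 CPM, reached into the range of the lean tumors after ETS, so that these groups overlapped. The log2 fold change with ETS was -4.01 (SE 0.42) in lean tumors and 3.70 (SE 0.53) in obese tumors. Before therapy, the log2 fold change of obese against lean tumors was -8.72 (SE 0.56) for Apol9a and -8.12 (SE 0.43) for Apol9b, against -5.95 (SE 0.84) for Apol6. With the counts of Apol9a and Apol9b summed, the log2 fold change with ETS was -3.83 in lean and 3.48 in obese tumors.

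Apol6, a single gene apart from the cluster, was the third member by mean TPM in 3 of the groups and the first in obese pre-therapy tumors, where the level rests on tumor 2. It was at 14.2, 60.1, 39.9 and 49.5 CPM in lean pre-therapy tumors and at 0.623, 0.579, 0.233 and 0.0875 CPM in lean tumors after ETS, with no overlap. In obese tumors it was at 0.206, 2.03, 0.217 and 0.226 CPM before therapy and at 3.33, 1.46, 2.40 and 0.577 CPM after ETS. Obese pre-therapy tumor 2 stood apart from its group, and through it the obese groups overlapped. The log2 fold change with ETS was -6.76 (SE 0.88) in lean tumors and 1.55 (SE 0.75) in obese tumors, and without obese pre-therapy tumor 2 the value in obese tumors was 3.14. Tumor 2 also had the highest Adgre1, a macrophage surface receptor, of the obese pre-therapy tumors (12.8 CPM, against 1.41 to 4.14 CPM in the other 3) and the highest Cxcl9, a chemokine induced by interferon gamma (7.34 CPM, against 0.139 to 2.21 CPM), and the part of these in its Apol6 level was not tested.

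Reads of Mb, a gene of skeletal muscle, could reach Apol6, since 64 exon bases are shared on opposite strands and it is not stated whether the authors counted by strand. Mb was at 0 in all 4 obese pre-therapy tumors, tumor 2 included, and in lean pre-therapy tumors 1 and 3. It was highest in obese tumor 2 after ETS, at 4.52 CPM, where Apol6 was at 1.46 CPM. In the lean group after ETS, Mb was at 2.85 and 2.35 CPM in tumors 1 and 2 and at 0 in tumors 3 and 4, and Apol6 was higher in the first pair (0.623 and 0.579 CPM) than in the second (0.233 and 0.0875 CPM).

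Apol10b, whose coding sequence was closest to that of Apol11b among the genes compared (82.1% identical), was barely counted outside lean pre-therapy tumors. It had 432, 978, 850 and 779 counts in lean pre-therapy tumors and 23, 14, 0 and 9 counts in lean tumors after ETS. It had 12, 9, 0 and 0 counts in obese pre-therapy tumors and 20, 7, 30 and 17 counts in obese tumors after ETS. The lean groups did not overlap, and the obese groups did. In a fit that kept genes with a count of 0, its log2 fold change with ETS was -5.83 (SE 0.87) in lean tumors and 1.63 (SE 0.88) in obese tumors. With each tumor left out in turn, the value in obese tumors ran from 1.19 (without obese pre-therapy tumor 3) to 2.48 (without obese pre-therapy tumor 1).

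**Figure D1:**
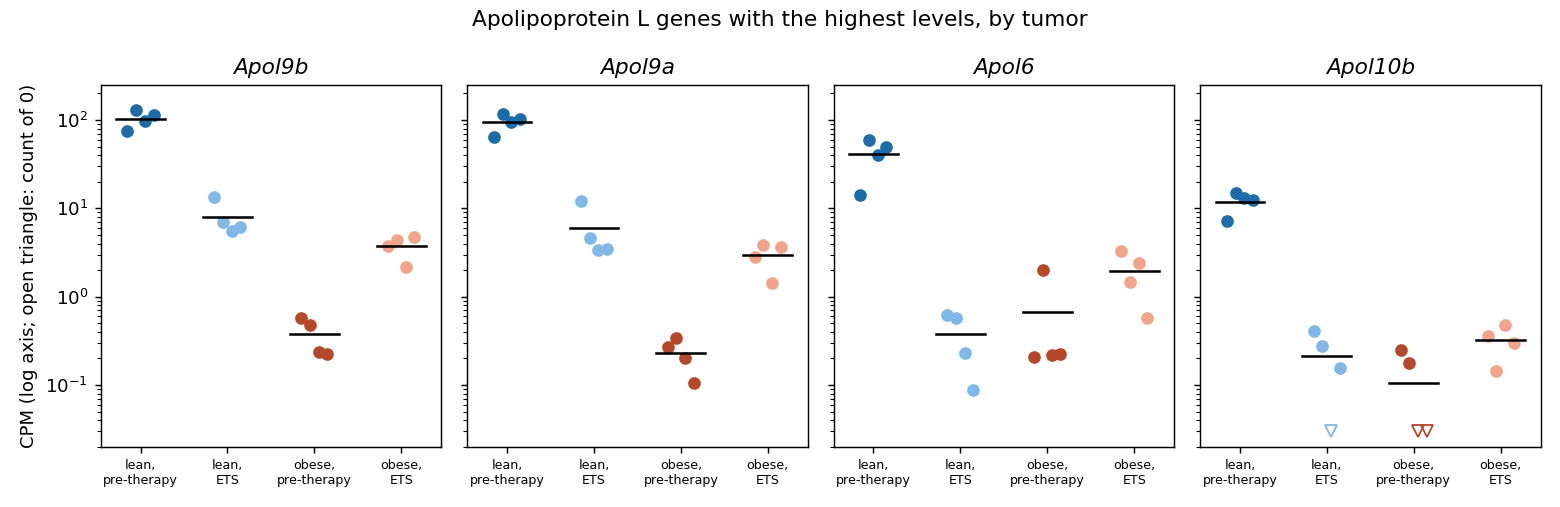
CPM (log axis) of Apol9b, Apol9a, Apol6 and Apol10b in each of the 16 tumors by group, with a point for each tumor, a line at the group mean and an open triangle for a count of 0. Lean pre-therapy tumors lie above every other tumor for each gene, and obese pre-therapy tumor 2 stands apart for Apol6 at 2.03 CPM.

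Apol7a and Apol7c were rare transcripts that were counted mainly in lean pre-therapy tumors. Apol7a had 12, 10, 10 and 14 counts in lean pre-therapy tumors, 0, 6, 6 and 0 in lean tumors after ETS, 0 in every obese pre-therapy tumor and 13, 5, 0 and 2 in obese tumors after ETS. Apol7c, which mouse dendritic cells are known to express, had 10, 17, 24 and 15 counts in lean pre-therapy tumors, 0 in every lean tumor after ETS and in every obese pre-therapy tumor, and 0, 0, 2 and 6 in obese tumors after ETS. Against a floor of 3 counts over a group with none, Apol7c was at least 19.0-fold lower in lean tumors after ETS than before therapy. In obese pre-therapy tumors, Apol7a was at least 13.0-fold lower and Apol7c at least 18.7-fold lower than in lean pre-therapy tumors. These floors cover counting error only.

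Apol8 went the other way. It had 0, 2, 5 and 6 counts in lean pre-therapy tumors and 29, 16, 8 and 20 in lean tumors after ETS, and 0, 8, 0 and 5 in obese pre-therapy tumors and 13, 9, 23 and 24 in obese tumors after ETS. After ETS it was higher in all 4 tumors than in all 4 before therapy in either host, at a mean of 0.332 against 0.0507 CPM in lean tumors and 0.301 against 0.0616 CPM in obese tumors. The log2 fold change was 2.64 (SE 0.94) in lean tumors and 2.25 (SE 0.93) in obese tumors, in the fit that kept genes with a count of 0. With each tumor left out in turn, the value in obese tumors ran from 1.83 (without obese pre-therapy tumor 3) to 3.22 (without obese pre-therapy tumor 2). It was the only one of the 7 genes that was higher after ETS in lean tumors, on counts of at most 29 per tumor.

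The other family genes were read beside these. Apol7e had 32, 74, 52 and 78 counts and Apol7b 12, 16, 17 and 17 in lean pre-therapy tumors, and lean tumors after ETS held 3 counts of Apol7e and 1 of Apol7b in all. In obese tumors Apol7e had no counts before therapy and 10, 0, 6 and 4 after ETS, and Apol7b had 5 counts in a single tumor before therapy and none after ETS. In the fit that kept genes with a count of 0, the log2 fold change with ETS in lean tumors was -5.89 (SE 1.05, edgeR quasi-likelihood adjusted p = 0.0014) for Apol7e and -5.21 (SE 1.37, adjusted p = 0.015) for Apol7b. Their promoters are near copies as well, and the ISRE letters, in capitals, were found only in that of Apol7e. Whether the letters bear on the levels was not tested. As the coding sequences differed at 12 of 1110 positions, reads could also be assigned to the wrong gene of this pair. The Apol7e stretch ends at its most upstream start site with a window, which lies inside the gene (from 77695706 to 77719288).

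Apol7e (chr15:77698789-77698888, plus strand): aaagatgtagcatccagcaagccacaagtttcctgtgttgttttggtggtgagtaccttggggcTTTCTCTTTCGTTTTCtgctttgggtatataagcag
Apol7b (chr15:77447461-77447560, minus strand): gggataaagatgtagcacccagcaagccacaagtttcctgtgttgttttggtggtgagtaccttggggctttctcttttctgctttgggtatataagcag

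Apol11b differed from the rest of the cluster, with 7, 16, 5 and 35 counts in obese pre-therapy tumors, 0, 0, 6 and 5 in lean pre-therapy tumors and none in the 8 tumors after ETS. It was at least 21.8-fold lower after ETS than before therapy in obese tumors. Apol10a and Apol11a had no count in any tumor. The windows of Apol11b, Apol10a and Apol11a each hold 1 match to the ISRE letters and 1 to the GAS letters. Apol7d, a noncoding gene on chromosome 1, had between 0 and 0.470 CPM. Apold1, an endothelial gene of chromosome 6 that shares only part of the name, was at 95.0 to 260 CPM in every tumor and rose with ETS in lean tumors by 0.45 on the log2 scale (SE 0.17, edgeR adjusted p = 0.047), a call that was lost in the fit that kept genes with a count of 0 (adjusted p = 0.090). Of the 15 apolipoproteins of plasma lipoproteins, which are a different family, 3 were tested. With ETS, 2 of them rose in lean and all 3 in obese tumors (21.0% and 21.2% of all tested genes rose). Apoa2, an apolipoprotein of high-density lipoprotein, was 1.23 higher with ETS in lean tumors on the log2 scale (SE 0.25, edgeR adjusted p = 0.0015). Apod, a lipocalin that binds small lipids, was 4.09 higher with ETS in obese tumors (SE 0.83, adjusted p = 0.0016), and its effects differed between hosts (-3.94, adjusted p = 0.020).

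**Figure D2:**
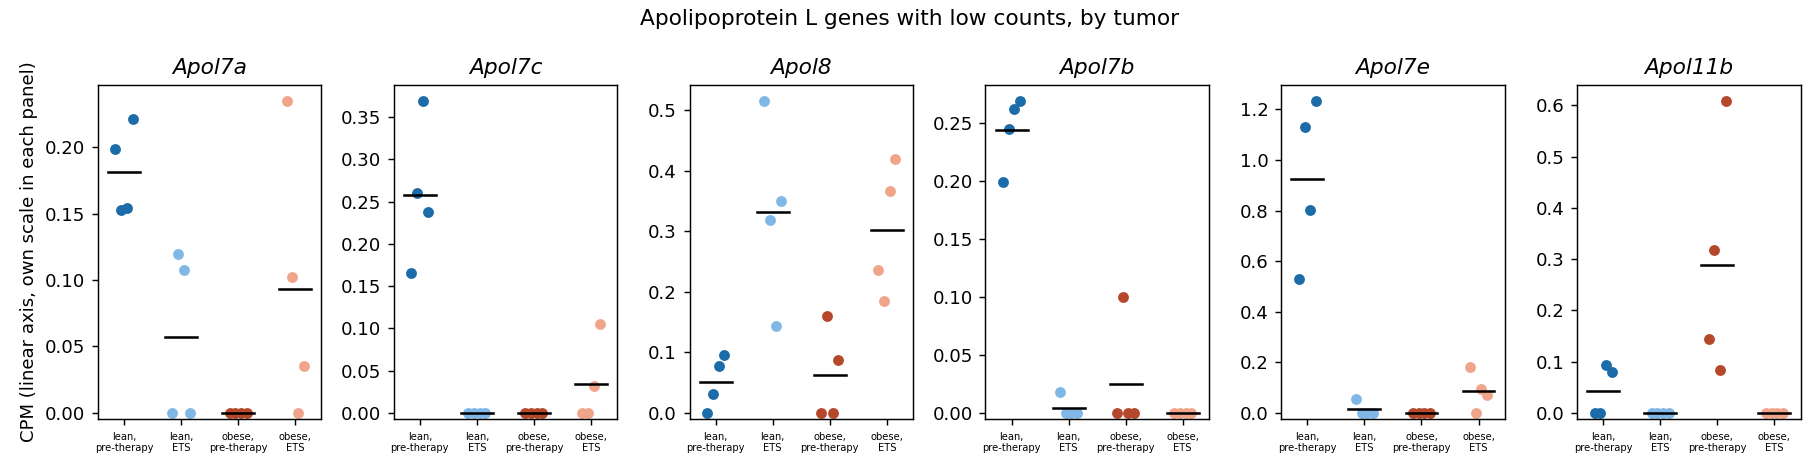
CPM (linear axis, with a scale of its own in each panel) of Apol7a, Apol7c, Apol8, Apol7b, Apol7e and Apol11b in each of the 16 tumors by group, with a point for each tumor and a line at the group mean. Apol7a, Apol7c, Apol7b and Apol7e are highest on average in lean pre-therapy tumors, Apol8 is higher after ETS in both hosts, and Apol11b is highest on average in obese pre-therapy tumors.

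Over the whole family, 6 of the 7 genes were lower in all 4 lean tumors after ETS than in all 4 before therapy, and Apol8 was higher in all 4. Among the 16209 genes with a count above 0 in every tumor, which hold 3 of the members (Apol6, Apol9a and Apol9b), 20.2% were lower and 21.0% higher without overlap in this comparison. In obese tumors, Apol8, Apol9a and Apol9b were higher in all 4 tumors after ETS than in all 4 before therapy (background 16.5% higher and 17.5% lower), and the other 4 members overlapped. Before therapy, the same 6 members were lower in all 4 obese tumors than in all 4 lean tumors (background 14.4%), and Apol8 overlapped. After ETS, by CPM, Apol9b alone was lower in all 4 obese tumors than in all 4 lean tumors (background 6.92%), and the other 6 members overlapped. The members were chosen with these values known, and nothing is read from their counts against the background.

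After ETS the fold changes of the members between hosts had both signs, while all members but Apol9b overlapped by CPM, and Apol9b overlapped by TPM. The log2 fold change of obese against lean tumors was -1.01 (SE 0.39) for Apol9a and -1.11 (SE 0.31) for Apol9b, and without lean tumor 1 after ETS it was -0.37 and -0.73. For Apol6 it was 2.36 (SE 0.79) and for Apol10b 0.61 (SE 0.81). The ratio of members within a tumor does not depend on how tumors are scaled to each other. Apol6 TPM was 13.6% ± 4.61 (SD, n = 4) of the summed Apol9a and Apol9b TPM in lean pre-therapy tumors and 1.84% ± 1.34 (n = 4) in lean tumors after ETS. It was 74.3% ± 70.2 (n = 4) in obese pre-therapy tumors and 24.5% ± 19.4 (n = 4) in obese tumors after ETS. The obese pre-therapy values, 18.5%, 176%, 39.7% and 62.9%, rest on 6 to 17 counts of Apol9a and 13 to 28 of Apol9b per tumor. The lean values after ETS, 0.532% to 3.71%, lay below all 12 others, the lowest of which was 4.42%. Apol10b was 3.86% ± 0.431 (n = 4) of the Apol9 pair in lean pre-therapy tumors and 0.805% ± 0.597 (n = 4) after ETS, and in obese tumors 7.38% ± 8.80 (n = 4) before therapy and 4.17% ± 4.32 (n = 4) after ETS. Outside lean pre-therapy tumors these shares rest on at most 30 counts of Apol10b per tumor. The ratio of Apol9a to Apol9b TPM was 0.988 ± 0.0512 (SD, n = 4) in lean pre-therapy tumors and 0.738 ± 0.165 (n = 4) in lean tumors after ETS. It was 0.759 ± 0.471 (n = 4) in obese pre-therapy tumors, on few counts, and 0.824 ± 0.0757 (n = 4) in obese tumors after ETS.

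**Figure D3:**
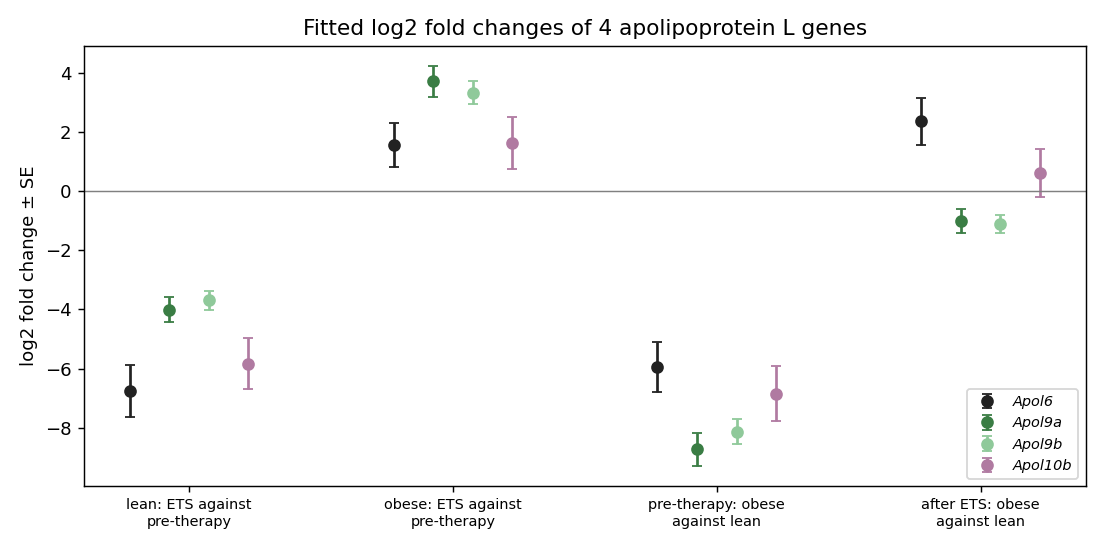
Fitted log2 fold change ± SE of Apol6, Apol9a, Apol9b and Apol10b in the 4 comparisons named on the x axis, from 4 tumors per group. Values are negative for ETS in lean tumors and for obese against lean tumors before therapy, positive for ETS in obese tumors, and of both signs for obese against lean tumors after ETS (2.36 for Apol6, -1.11 for Apol9b).

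**Figure D4:**
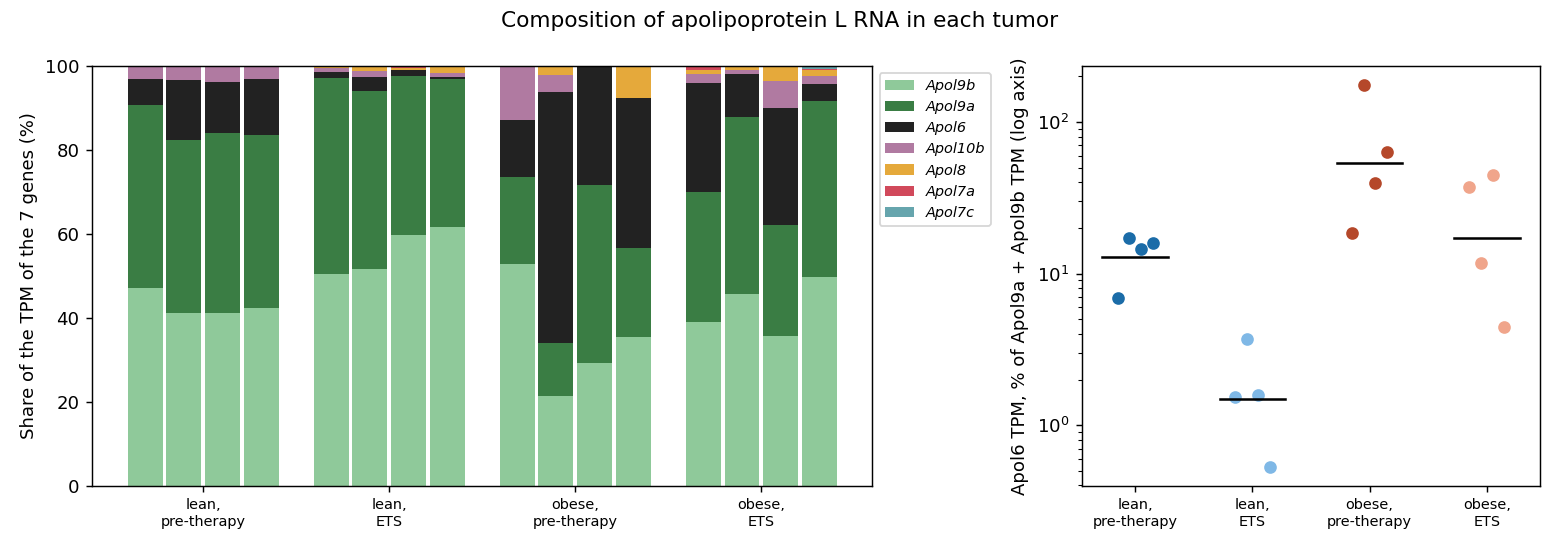
Left, share of each of the 7 genes in their summed TPM (%, 1 bar per tumor, groups in blocks). Right, Apol6 TPM as a percentage of Apol9a plus Apol9b TPM in each tumor (log axis, line at the geometric mean), which lies at 0.532% to 3.71% in lean tumors after ETS and at 4.42% or more in the other groups.

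Interferon signaling genes were examined beside the family, as lists chosen with earlier results of these data known. Of 15 receptors, kinases and factors of interferon signaling, 12 fell and none rose with ETS in lean tumors (edgeR quasi-likelihood test, adjusted p under 0.05, where 22.8% of all tested genes fell and 21.0% rose). In obese tumors 9 of the 15 rose and none fell (21.2% of all tested genes rose and 19.0% fell). Stat2 fell by 1.93 (SE 0.21, edgeR adjusted p = 1.3e-05) in lean tumors on the log2 scale and rose by 0.84 (SE 0.21, adjusted p = 0.0057) in obese tumors. Irf9 fell by 0.67 (SE 0.17, edgeR adjusted p = 0.0050) in lean tumors and rose by 1.29 (SE 0.17, adjusted p = 8.3e-05) in obese tumors. Irf7, which amplifies type I interferon, fell by 1.77 (SE 0.47, edgeR adjusted p = 0.0074) and rose by 3.79 (SE 0.52, adjusted p = 0.00011). Irf1, a factor of the interferon gamma response, fell by 3.46 (SE 0.28, edgeR adjusted p = 1.5e-06) in lean tumors, while its value in obese tumors was 0.36 (SE 0.26, adjusted p = 0.29). The difference between both effects passed the test for each of these 4 genes.

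Interferons themselves were scarce. Ifng had 83, 176, 65 and 147 counts in the 4 lean pre-therapy tumors, 4 counts in a single tumor of each other group, and 0 in the other 9 tumors. Ifnb1 was counted in a single lean pre-therapy tumor at 0.0662 CPM and in a single obese tumor after ETS at 0.0616 CPM. The tumors with more than a trace of Ifng were those of 1 group, the lean pre-therapy tumors, which also held most apolipoprotein L RNA. In the other groups, with 0 or 4 counts of Ifng per tumor, Apol9b ran from 0.226 to 13.6 CPM. Whether Ifng bears on the levels of the family was not tested.

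The genes that interferons induce were counted in 2 lists. Of 20 antiviral genes induced by type I interferon, 12 fell and none rose with ETS in lean tumors, whereas obese tumors showed 19 that rose and none that fell, and all 20 differed between both effects (10.1% of all tested genes were lower in this difference and 6.35% higher). Zbp1, a sensor of nucleic acids, fell by 4.35 (SE 0.56, edgeR adjusted p = 4.3e-05) in lean tumors, and Oas3, which makes the activator of RNase L, rose by 4.91 (SE 0.69, adjusted p = 0.00012) in obese tumors. Of 16 tested genes induced mainly by interferon gamma, all 16 fell in lean tumors and all 16 differed between both effects, while obese tumors showed 10 that rose and none that fell (6 that rose without obese pre-therapy tumor 3). Among these, Gm12250, an immunity-related GTPase gene, had the largest fall with ETS in lean tumors, with -6.02 (SE 0.75, edgeR adjusted p = 3.4e-05), and Gbp5, a guanylate-binding protein, rose by 2.89 (SE 0.66, adjusted p = 0.0035) in obese tumors. The median log2 fold change with ETS was -4.47 for the interferon gamma list and -1.33 for the antiviral list in lean tumors (-0.015 over all tested genes). In obese tumors these medians were 1.82 and 2.88 (0.0066 over all tested genes).

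Between hosts before therapy, all 20 antiviral genes, all 16 interferon-gamma-induced genes and 13 of the 15 receptors and factors were lower in obese tumors (12.9% of all tested genes were lower and 13.5% higher). After ETS, none of the 20 antiviral and none of the 16 interferon-gamma-induced genes passed edgeR's test between hosts, where 3.28% of all tested genes were higher in obese tumors and 2.30% lower (904 genes in all, and between 186 and 1347 with a tumor left out). At an unadjusted p under 0.05, 2 antiviral genes and 1 interferon-gamma-induced gene differed, and DESeq2 called 2 and 0 of them at an adjusted p under 0.05. Of the receptors and factors, Ifngr1 alone passed, at 0.49 (SE 0.13, edgeR adjusted p = 0.043), and not without the exclusion of genes with a 0.

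Genes with the course most like that of a member were sought among 13525 genes outside the family with a mean of at least 1 CPM, by the root mean square (RMS) difference of log2 CPM over the 16 tumors after centring each gene on its mean. Apol6 was closest to Gm12250 (RMS difference 0.93), Cxcl9 (1.01) and Ubd, a ubiquitin-like modifier induced by interferon gamma and tumor necrosis factor (1.07), on an own spread of 2.87. Apol9a was closest to Tap1, the peptide transporter of antigen presentation (0.87), and to the GTPases Ifi47 (0.88) and Igtp (0.93). Apol9b was closest to Tap1 (0.67), Ifi47 (0.79) and H2-DMb1, a chain that loads peptides on MHC class II (0.80). Apol10b was closest to Prf1, the perforin of cytotoxic lymphocytes (0.49), Gm12250 (0.66) and Psmb9, a subunit of the immunoproteasome (0.73). Both Apol10b and Prf1 had a count of 0 in lean tumor 3 after ETS and in obese pre-therapy tumors 3 and 4. In these tumors the count added for the log2 scale sets both levels. Apol9a and Apol9b differed from each other by only 0.30, whereas Apol6 was nearer to Apol10b (1.203) than to Apol9a (1.94) or Apol9b (1.96). Group means dominate these measures, since tumors of a group shared host and treatment.

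**Figure D5:**
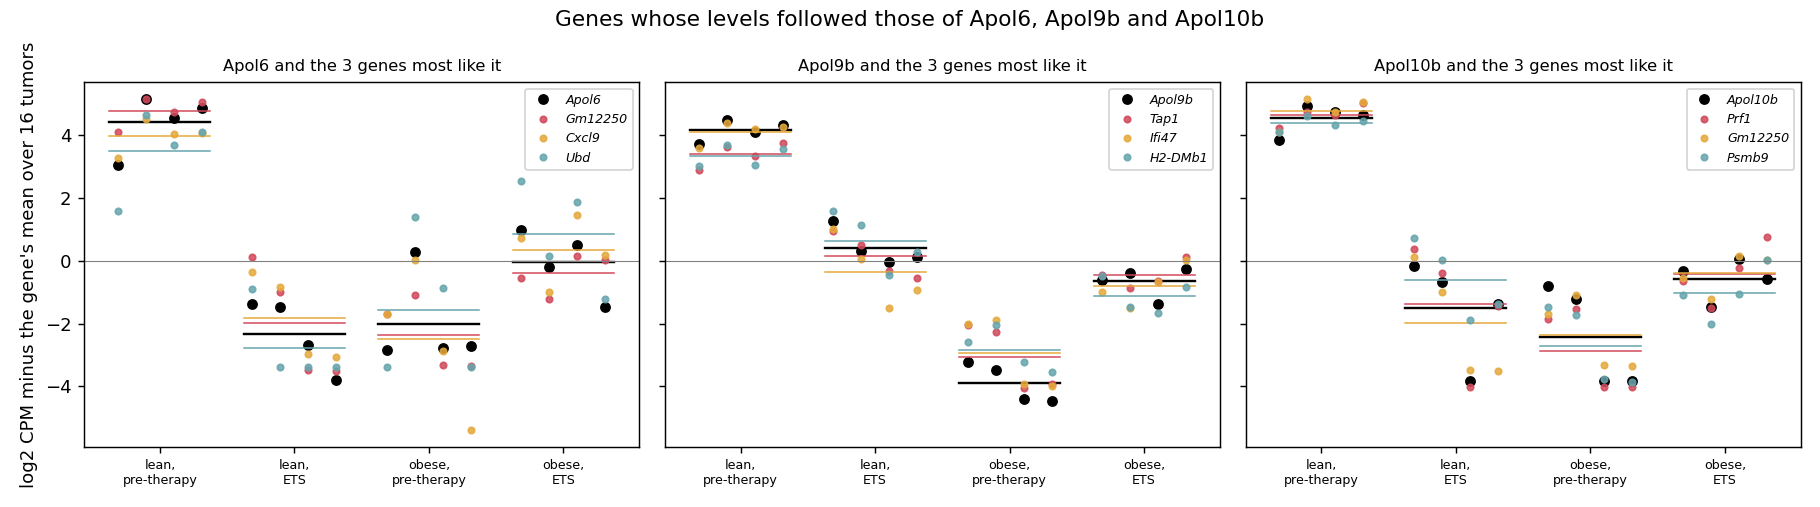
log2 CPM minus the mean of the gene over the 16 tumors, for Apol6, Apol9b and Apol10b (black) and the 3 genes most like each (colors), with a point for each tumor and a line at each group mean. Lean pre-therapy tumors lie highest on average for all of these genes, obese tumors after ETS lie above obese pre-therapy tumors on average, and RMS differences from the member were 0.93 to 1.07 for Apol6, 0.67 to 0.80 for Apol9b and 0.49 to 0.73 for Apol10b.

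Markers of immune cells, fibroblasts, keratinocytes and skeletal muscle were read beside the family. The 8 markers of T and NK cells summed to between 41.7 and 72.5 CPM in lean pre-therapy tumors, 0.286 and 2.31 CPM in lean tumors after ETS, 0 and 1.21 CPM in obese pre-therapy tumors and 0.842 and 4.07 CPM in obese tumors after ETS, with Cd3e and Ncr1 at 0 in all obese pre-therapy tumors. The 7 macrophage markers summed to between 328 and 1087 CPM, 45.6 and 346 CPM, 36.5 and 222 CPM, and 286 and 881 CPM in the same order, with none at 0 in a group. The 7 dendritic cell markers summed to between 25.1 and 47.3 CPM in lean pre-therapy tumors and to between 6.04 and 11.6 CPM over the 3 other groups, with Siglech at 0 in lean tumors after ETS. The 6 fibroblast markers had median sums of 662 CPM (368 to 1043) in lean pre-therapy tumors, 145 CPM (61.7 to 398) in lean tumors after ETS, 196 CPM (69.3 to 352) in obese pre-therapy tumors and 883 CPM (391 to 3060) in obese tumors after ETS. Keratinocyte markers summed to 142 CPM in obese tumor 2 after ETS and to at most 3.35 CPM in every other tumor. Skeletal muscle markers reached 168 and 241 CPM in lean and 4.42 and 310 CPM in obese tumors before and after ETS. The 4 B cell markers had median sums of 2.21 and 2.23 CPM in lean and 1.32 and 2.04 CPM in obese tumors before and after ETS. Lean pre-therapy tumor 3 had the lowest macrophage sum of its group, at 328 CPM, while its Apol9b was at 98.1 CPM, and obese tumor 4 after ETS had a macrophage sum of 881 CPM with Apol9b at 4.72 CPM. In lean tumors after ETS both were higher in tumors 1 and 2 than in tumors 3 and 4. There the macrophage sums were 289, 346, 96.7 and 45.6 CPM, with Apol9b at 13.6, 6.98, 5.54 and 6.16 CPM. In whole tumors, fewer cells of a type and less RNA per cell cannot be told apart, and the part of these cells in the levels of the family was not tested.

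The neighbors of the cluster were tested as well. Within 500 kb on either side of the apolipoprotein L genes of chromosome 15, 29 other genes were tested. With ETS, 9 of them rose and 7 fell in lean tumors (21.0% and 22.8% over all tested genes), and in obese tumors 3 rose and 4 fell (21.2% and 19.0%). Before therapy 1 was higher and 4 were lower in obese than in lean tumors (13.5% and 12.9%). Their median log2 fold change was 0.17 with ETS in lean tumors, 0.048 in obese tumors and -0.039 between hosts before therapy. Rbfox2, an RNA splicing factor between Apol6 and the cluster, fell by 0.34 (SE 0.14, edgeR adjusted p = 0.0495) with ETS in lean tumors, just past the threshold. Myh9, the nonmuscle myosin gene beyond Apol8, fell by 0.69 (SE 0.20, edgeR adjusted p = 0.011) in lean tumors and was at 0.37 (adjusted p = 0.14) in obese tumors, with a difference between both effects of -1.06 (adjusted p = 0.016). The other neighbor called lower in this difference was Ncf4, a subunit of the phagocyte oxidase, with -2.51 (SE 0.64, edgeR adjusted p = 0.0057) in lean and 2.61 (SE 0.66, adjusted p = 0.0063) in obese tumors. In all, 2 neighbors were called lower and 3 higher in this difference (10.1% and 6.35% of all tested genes). Those called higher were Zfp647 (0.71, edgeR adjusted p = 0.035), Vps28 (0.47, adjusted p = 0.014) and Cyhr1 (0.31, adjusted p = 0.021).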

How the data were processed

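RNA of 16 tumors was sequenced from stranded poly(A) libraries. The authors aligned reads to mm10 with HISAT2 2.1.0 and quantified genes with StringTie 2.1.3b, as the submitters' processing notes name them, and whether counting used the strand is not given in the sources used here. Per gene, the authors deposited whole-number counts without normalization. The deposited TPM values are scaled by length and library, and gave the levels compared between genes. The deposited FPKM values were not used.

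As in the study's methods, 29568 genes with a 0 in any tumor were excluded, which left 16209. CPM values were scaled by TMM. edgeR 4.0.16 (R 4.3.3) fitted its quasi-likelihood test to all 16 tumors with a mean per group, with Benjamini-Hochberg adjustment. SEs came from the F statistic. For Apol7a, Apol7c, Apol8 and Apol10b, which have zeros, a fit without the exclusion was used. Log2 CPM had a prior count of 2. The step was tested on simulated counts. Coordinates are from GRCm38.p6, strands, exons and coding sequences from GENCODE M21, and sequences from the RefSeq GRCm38 promoter table.

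The members and lists were chosen with earlier results of these data known. Named genes were all family genes, chromosome 15 neighbors, the 3 genes most like each member with a mean of at least 1 CPM, the largest called change per list, and the main interferon factors and ligands, of which 1 is not reported here. Labels name the 4 samples of a group as separate, and p-values measure the spread between them. Closely similar libraries were not found. The alternatives were DESeq2 size factors, DESeq2's Wald test, edgeR's exact test on counts plus 1, no exclusion, filterByExpr, limma on log2(TPM + 1), fits of only the tumors compared, a replicate block, the Apol9 pair summed, and each tumor left out.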

Additional observations from a re-analysis of the deposited data

Results flagged for a closer look

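Apol6 was at 2.03 CPM in obese pre-therapy tumor 2, far from the other 3 tumors of its group (0.206 to 0.226 CPM), and Apol9a was at 12.3 CPM in lean tumor 1 after ETS, far from the other 3 (3.42 to 4.63 CPM). Both exceeded Dixon's 95% critical value for 4 samples, among 25 groups of member values compared, and chance would give about 1 in 20.

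Every lean tumor lay lower and every obese tumor higher after ETS than before therapy for Apol9a, with a difference between both effects of -7.70 on the log2 scale, and for Apol9b, with -7.01. These differences were not tested, since the genes were chosen on these values.

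The difference between the effects of ETS in lean and obese tumors passed edgeR's quasi-likelihood test for Stat2 (-2.76 on the log2 scale, adjusted p = 3.0e-05), Irf9 (-1.97, adjusted p = 8.1e-05), Irf1 (-3.81, adjusted p = 2.0e-05) and Irf7 (-5.56, adjusted p = 0.00011).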

How the results depend on the processing

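The signs of the members' fold changes held in every alternative run for Apol6, Apol9a, Apol9b and Apol10b, and for the 2 ETS comparisons of Apol8. Of 530 such values, 509 moved by less than the spread between replicates and 21 by more, 16 of them with limma on log2(TPM + 1), whose pseudocount understates changes of low genes (Apol6 -4.84 with ETS in lean tumors, Apol9a 1.81 in obese tumors). That scaling also shifted the median of all genes to -0.28 with ETS in lean tumors, -0.16 in the difference between both effects and 0.10 between hosts after ETS, against -0.015, 0.052 and 0.0016 with TMM. With each tumor left out in turn, the change of Apol6 with ETS in obese tumors was 1.19 to 3.14, the difference between its effects -9.90 to -7.97 and its difference between hosts before therapy -7.54 to -5.64, in each case farthest from the value reported without obese pre-therapy tumor 2. The order of the members by mean level was the same with CPM as with TPM in all 4 groups.

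Between hosts after ETS, 904 genes were called, against 450 without the exclusion, 1564 with the exact test, 2078 with DESeq2, 66 with only the 8 tumors compared in the fit and 186 to 1347 with a tumor left out. The antiviral list had 1 call with the exact test and 2 with DESeq2, against 0. The receptors and factors had 0 calls without the exclusion and with only the tumors compared, and 0 to 1 with a tumor left out. The plasma apolipoproteins had 1 call with the exact test and with DESeq2, and 0 to 1 with a tumor left out. Before therapy they had 4 without the exclusion against 2, in the difference between both effects 2 without the exclusion and 2 with filterByExpr against 1, and with ETS in lean tumors 1 with limma on TPM against 2. In obese tumors, limma on TPM called 5 receptors and factors against 9, and leaving out a tumor gave 6 to 13 interferon-gamma-induced genes against 10. The cause of these moves was not tested. The other counts of these 4 lists stayed within 1.5 times the value reported. Of the other apolipoprotein L genes only Apold1 was tested, and keeping genes with a 0 added calls for Apol7e and Apol7b in lean and for Apol7e and Apol11b in obese tumors, while Apold1 lost its call.

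The labels do not say that equal replicate numbers mark a shared animal, batch or day, and the correlation of the deviations of same-numbered tumors was -0.112 to 0.452 over 24 pairs, with 11 above 0.1, so the numbers were not taken as a pairing, although 7 of 16 tumors were most like those of their own number. For some genes, tumors 1 and 2 lay apart from tumors 3 and 4 of a group. Gm12250 was at 5.36 and 2.47 against 0.411 and 0.402 CPM in lean tumors after ETS. In lean pre-therapy tumors these pairs overlapped (84.9 and 177 against 133 and 164 CPM). The labels give no source for such a split, which was not tested and is part of the spread behind the SEs and p-values. With the replicate number as a block, 1683 genes and 1 antiviral gene were called between hosts after ETS, and Apol6 changed with ETS by -6.93 in lean and 1.89 in obese tumors.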
